A study of Mus musculus with 3 samples.

Results

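The collagen genes were followed in kidney rudiments of E12.5 mouse embryos that lacked Fgfrl1, a receptor-like protein that binds fibroblast growth factors. Fgfrl1-/- embryos on the C57BL/6 background were compared with wildtype (wt) littermates, with no treatment in either group. Each of 3 Agilent microarrays carried 1 Fgfrl1-/- pool, labelled with Cy3 (green), and 1 wildtype pool, labelled with Cy5 (red), and every pool held 6 to 9 rudiments. The members were all probes that detect mouse transcripts and whose gene name in the scanner files has the form of a collagen chain (Col, a type number, a, a chain number). They were 81 probes for 40 genes, out of 41174 probes and 19753 genes in all. The genes fell into 9 fibrillar collagens (types I, II, III, V and XI), 8 basement membrane collagens (types IV, XV and XVIII) and 23 others. Values are log2 ratios of Fgfrl1-/- over wildtype, given for arrays 1, 2 and 3 and then as mean ± SD (n = 3), so that a value above 0 is higher in the Fgfrl1 deficient kidneys. Each gene was read from its brightest probe unless stated otherwise.

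Collagens are built from 3 chains wound into a triple helix, which requires glycine at every 3rd residue. Fibrillar collagens give tensile strength to interstitial matrix. Type IV collagen forms the sheet-like network of basement membranes, which in the kidney underlie the ureteric epithelium, the tubules and the glomerular capillaries. Other collagens decorate fibrils, anchor cells or remain in the plasma membrane. In the kidney rudiment the interstitial types are known mainly from stromal cells. The Fgfrl1 knock-out is a germline deletion, so the gene is missing from every cell of the rudiment and of the embryo.

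The glycine repeat can be read directly in 3 of the 81 probes, which are shown because their letters show that these 60-base oligos lie in the coding part of a triple helix. Capitals mark the glycine codons (GGN), which recur at every 9th base, 6 times in the Col5a1 and Col11a2 probes and 7 times in the Col5a3 probe. The Col5a1 probe spans chr2:27808732-27811155 on the plus strand, the Col11a2 probe chr17:33662796-33662962 on the plus strand and the Col5a3 probe chr9:20536024-20536753 on the minus strand, all as mm8 positions given by the files. Each span is longer than the oligo.
Col5a1: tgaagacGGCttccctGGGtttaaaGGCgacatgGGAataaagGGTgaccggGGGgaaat
Col11a2: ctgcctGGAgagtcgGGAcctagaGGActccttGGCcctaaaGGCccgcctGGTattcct
Col5a3: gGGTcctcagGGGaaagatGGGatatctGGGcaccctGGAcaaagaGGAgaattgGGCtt
The Col5a1 helix probe gave 0.37 ± 0.37. That of Col11a2 gave -0.0081 ± 0.044 and that of Col5a3 gave -0.10 ± 0.13. None of them was the brightest probe of its gene.

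The arrays did not resemble each other equally. Over all probes, the log2 ratios of arrays 2 and 3, which lay on one slide, correlated with r = 0.77, whereas array 1, alone on another slide, correlated with them at r = 0.28 and 0.32. Fgfrl1 itself was lower on every array (-1.21, -1.51 and -1.83), with a mean of -1.52 ± 0.31 and an adjusted p of 0.0108. The dyes were not swapped, so that the genotype and the dye cannot be told apart in any ratio. By the scanner software's flag, 36 of the 40 collagen genes were well above background in each of the 6 channels. Col10a1 and Col28a1 were not well above background in any channel. The flag was set unevenly, at 80.15% in the Fgfrl1-/- channel of array 1 against 57.13% to 64.95% in the other channels. Flag counts are therefore not compared between the genotypes.

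Several collagens of the interstitial matrix were higher in the Fgfrl1 deficient kidneys, 1 transmembrane collagen was lower, and none of the basement membrane collagens passed the test. limma, fitted across all genes with Benjamini-Hochberg adjustment at a threshold of 0.05, called 8 of the 40 collagen genes higher, against 1.96% of all genes tested. These were Col16a1, Col1a1, Col24a1, Col6a3, Col5a1, Col5a2, Col6a1 and Col9a1. It called 1 of the 40 lower, Col13a1, against 1.70% of all genes, so that 9 of 40 passed in either direction, against 3.66%. An unadjusted p below 0.05 was reached by 15 genes upward (11.3% of all genes) and by 1 downward (9.75%). The ratio was above 0 on all 3 arrays for 18 of the 40, against 22.6% of all genes, and below 0 on all 3 arrays for 2, against 20.6%. The median log2 ratio was 0.41 over the fibrillar, 0.034 over the basement membrane and 0.10 over the other collagens, beside 0.0069 over all genes. The plot of log2 ratios by class shows every gene.

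**Figure D1:**
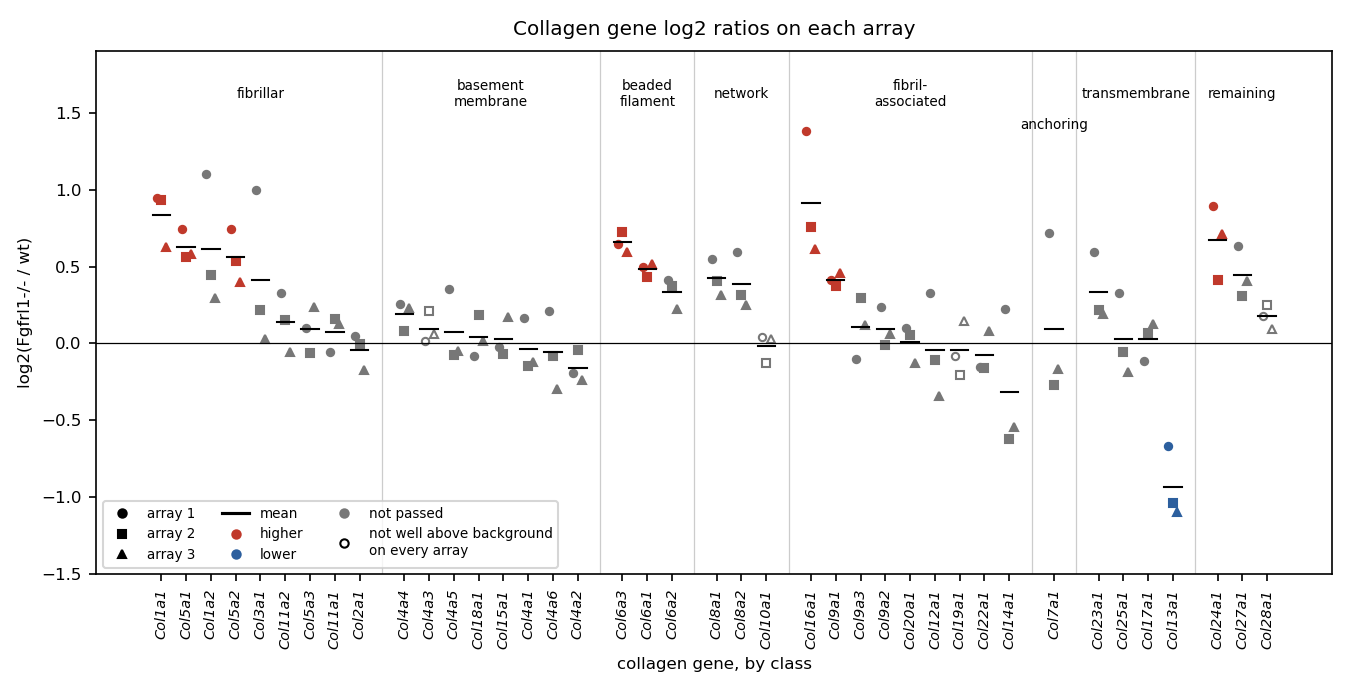
Log2 ratios of Fgfrl1-/- over wildtype (vertical axis) for all 40 collagen genes (horizontal axis), grouped by the kind of collagen. Symbols stand for the 3 arrays, short lines for their mean, red and blue for genes called higher and lower at an adjusted p below 0.05, and open symbols for probes that were not well above background in every channel. The 8 red genes lie in the fibrillar, beaded filament, fibril-associated and remaining classes, Col13a1 is the 1 blue gene, and the basement membrane genes scatter around 0. With median centring in place of loess no collagen gene was called higher.

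The counts depended on the arrays and on the scaling. Arrays 2 and 3 alone, which share a slide, gave 13 of 40 collagen genes higher and 3 lower, where 12.3% and 11.4% of all genes were called. A fit with the slide as a block gave 17 and 2, beside 16.3% and 13.7% of all genes, so that the counts of lower collagens were below these shares. In both fits the residual spread is only that between arrays 2 and 3. Their p-values therefore do not measure the spread between slides. Without array 2 or without array 3 no collagen gene was called, and at most 0.0557% of all genes were called higher and 0.192% lower, while 14 and 15 still had an unadjusted p below 0.05 upward and 1 in each case downward in limma. Median centring in place of loess, which set the median of the brighter genes at -0.18, left 0 collagen genes higher (2 at an unadjusted p below 0.05) and 1 lower, beside 0.0861% and 1.54% of all genes. The fibrillar median was 0.14 without array 1, 0.74 on array 1 alone and 0.10 with median centring. Each of the 9 called genes kept its direction under all 16 alternatives that gave a test, but their sizes did not all hold. The direction was in part fixed beforehand. Each called gene had the same sign on all 3 arrays, so leaving out 1 array or blocking by slide could not turn it. Trend and robust variances and a fit of separate channels change only the variance, not the log2 ratio. Leaving out dim probes, keeping outlier spots and using the scanner files' gene names left the ratios of the called genes unchanged. The kept direction under all these alternatives therefore adds no support. With median centring Col1a1 was at 0.29, Col5a1 at 0.22, Col5a2 at 0.36, Col6a3 at 0.37, Col9a1 at 0.25 and Col16a1 at 0.58, and none of these passed (adjusted p from 0.186 to 0.890). With the probes of a gene averaged, Col6a3 was at 0.27, Col16a1 at 0.45 and Col24a1 at 0.37 without passing (adjusted p from 0.0646 to 0.0938), and Col13a1 was at -0.62 and passed.

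Among the fibrillar collagens, 3 of 9 were higher and none was lower, beside 1.96% and 1.70% of all genes. Of the 9, 5 were above 0 on all 3 arrays, beside 22.6% of all genes. Col1a1 encodes the alpha 1 chain of type I collagen, the main fibre of interstitial matrix. Its normalized log2 signal was 15.95, 15.71 and 15.45 in the Fgfrl1-/- pools and 15.01, 14.77 and 14.82 in the wildtype pools. Every Fgfrl1-/- pool lay above every wildtype pool. The log2 ratio of Col1a1 was 0.95, 0.93 and 0.63, with a mean of 0.84 ± 0.18, which is 1.78-fold, and an adjusted p of 0.0172 in limma. The probe lies at chr11:94767851-94767910 (mm8, plus strand). It was spotted 10 times on each array, and the SD over these spots was 0.18, 0.034 and 0.052 on arrays 1, 2 and 3, so that the spread within an array reached that between arrays only on array 1. The study also measured Col1a1 by quantitative PCR. That measurement was not analysed here, and the array value carries no support from it.

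Col1a2 encodes the partner chain, of which 1 joins 2 alpha 1 chains in the type I molecule. Its log2 ratio was 1.10, 0.45 and 0.29, with a mean of 0.61 ± 0.43 and an adjusted p of 0.0968. It was above 0 on all arrays but did not pass, and array 1 gave the highest value. Without array 1 the mean of Col1a2 was 0.37 (adjusted p = 0.00665 in limma). That fit rests on 2 arrays of 1 slide, does not measure the spread between slides, and called 12.3% of all genes higher. Col3a1, the chain of the thin reticular fibres of type III collagen, behaved in the same manner, with 0.995, 0.22 and 0.029 on the arrays, a mean of 0.41 ± 0.51 and an adjusted p of 0.277. The value of Col3a1 rested on array 1. Without that array its mean was 0.12, and with median centring it was -0.067.

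Type V collagen is a minor component that controls the start and the diameter of type I fibrils. Its Col5a1 chain gave 0.74, 0.56 and 0.58, a mean of 0.63 ± 0.10 or 1.55-fold (adjusted p = 0.0205), from a probe at chr2:27859381-27859440 (mm8, plus strand). The Col5a2 chain gave 0.74, 0.54 and 0.40, a mean of 0.56 ± 0.17 or 1.47-fold (adjusted p = 0.0386), from a probe at chr1:45321322-45321381 (mm8, minus strand). Both chains were higher on every array. The pools of Col5a1 did not overlap, whereas for Col5a2 the wildtype pool of array 1 (log2 signal 9.58) lay above the Fgfrl1-/- pools of arrays 2 and 3 (9.51 and 9.47). The Col5a3 chain, found in a subset of type V molecules, gave 0.10, -0.060 and 0.24, a mean of 0.093 ± 0.15 (adjusted p = 0.615).

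Types II and XI form the fibrils of cartilage. Col2a1, the cartilage fibril chain, gave 0.048, -0.0062 and -0.18, a mean of -0.044 ± 0.12. Col11a1 gave -0.055, 0.16 and 0.13, a mean of 0.077 ± 0.12, and Col11a2 gave 0.33, 0.15 and -0.057, a mean of 0.14 ± 0.19. None of these 3 genes passed (adjusted p between 0.471 and 0.820), and each had at least 1 array on either side of 0. All 3 were well above background in every channel. The second probe of Col2a1, 20 bases upstream of the brightest in the genome, gave -0.36 ± 0.24.

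Of the 8 basement membrane collagens, 0 passed the test in limma in either direction, and 1 (Col4a4) had an unadjusted p below 0.05. With 3.66% and 21.1% of all genes at these thresholds, such counts in 8 genes are near the background. Their means ran from -0.16 (Col4a2) to 0.19 (Col4a4). Their median was 0.089, -0.055 and -0.016 on arrays 1, 2 and 3, whereas the fibrillar median was 0.74, 0.22 and 0.24. The fibrillar median thus exceeded the basement membrane median by 0.65, 0.27 and 0.25 on the arrays. The difference was above 0 on all 3 arrays and widest on array 1, and it was not tested because genes are not replicates.

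Col4a1 and Col4a2 encode the chains of the ubiquitous type IV network. In the RefSeq annotation of GRCm38.p6 they lie head to head on chromosome 8, with starts 21 bases apart. Col4a1 gave 0.16, -0.14 and -0.12, a mean of -0.033 ± 0.17. Col4a2 gave -0.19, -0.041 and -0.24, a mean of -0.16 ± 0.10, and was one of 2 collagen genes, with Col13a1, below 0 on all arrays. Neither chain passed (adjusted p = 0.892 and 0.322).

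The chains Col4a3, Col4a4 and Col4a5 make up the network of the mature glomerular basement membrane, and Col4a6 pairs with Col4a5 in other basement membranes. Col4a4 gave 0.26, 0.082 and 0.23, a mean of 0.19 ± 0.095 (adjusted p = 0.229). Col4a5 gave 0.36, -0.076 and -0.046, a mean of 0.078 ± 0.24, and Col4a6 gave 0.21, -0.079 and -0.30, a mean of -0.055 ± 0.25. These neighbours on the X chromosome were each above 0 on array 1 and below 0 on arrays 2 and 3. Col4a3, well above background in 1 of the 3 Fgfrl1-/- pools and in 0 wildtype pools, gave 0.015, 0.21 and 0.061. Col15a1 and Col18a1, whose chains carry long sugar side chains and release the angiogenesis inhibitors restin and endostatin, gave means of 0.028 ± 0.13 and 0.039 ± 0.14, within the spread between arrays. Col18a1 was at -0.40 with median centring.

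The genes of type VI collagen, which forms beaded filaments around cells, had the class median that varied least between arrays, among the classes with several members. Col6a3, the largest chain, gave 0.65, 0.72 and 0.60, a mean of 0.66 ± 0.065 or 1.58-fold (adjusted p = 0.0172). Its probe lies at chr1:92597492-92597551 (mm8, minus strand), and the Fgfrl1-/- pools were all above the wildtype pools. Col6a1 gave 0.50, 0.43 and 0.52, a mean of 0.48 ± 0.046 or 1.40-fold (adjusted p = 0.0323), from a probe at chr10:76152870-76152929 (mm8, minus strand). Col6a2 gave 0.41, 0.37 and 0.23, a mean of 0.34 ± 0.10 (adjusted p = 0.0725). All 3 chains were above 0 on every array, and the first 2 passed.

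The fibril-associated collagens, which sit on the surface of other fibrils or link them to neighbouring matrix, did not move together. Of their 9 genes, 2 were higher and none was lower, beside 1.96% and 1.70% of all genes, and the median was 0.0084. Col16a1, found near fibrils and in some pericellular matrices, had the highest mean of the 40 genes. Its log2 signal was 12.57, 12.01 and 11.77 in the Fgfrl1-/- pools and 11.19, 11.25 and 11.16 in the wildtype pools, with no overlap. The ratio of Col16a1 was 1.38, 0.76 and 0.61, a mean of 0.92 ± 0.41 or 1.89-fold (adjusted p = 0.0419), from a probe at chr4:129601405-129601464 (mm8, plus strand). Array 1 stood above the others, and without it the mean was 0.68.

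Type IX collagen coats cartilage fibrils and needs 3 different chains. Col9a1 gave 0.41, 0.38 and 0.46, a mean of 0.41 ± 0.040 or 1.33-fold (adjusted p = 0.0425), from a probe at chr1:24206120-24206179 (mm8, plus strand). Col9a2 gave 0.24, -0.011 and 0.062, a mean of 0.10 ± 0.13, and Col9a3 gave -0.10, 0.30 and 0.12, a mean of 0.10 ± 0.20. Only the alpha 1 chain passed, and a difference between the chains was not tested. Col14a1, which binds fibrils in dense connective tissue, gave 0.22, -0.62 and -0.54, a mean of -0.31 ± 0.47 (adjusted p = 0.369). On arrays 2 and 3 alone its mean was -0.58 (adjusted p = 0.000651 in limma). These arrays share a slide, so this p does not measure the spread between slides. In that fit 11.4% of all genes were called lower. Col12a1, Col19a1, Col20a1 and Col22a1 had means between -0.076 and 0.0084, each with arrays on both sides of 0. The 3′-most probe of Col22a1, which was not the brightest but was well above background in every channel, gave 0.29 ± 0.089.

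Col13a1 was the 1 collagen gene that fell. It encodes a transmembrane collagen found at cell junctions. Its log2 signal was 8.93, 9.36 and 9.26 in the Fgfrl1-/- pools and 9.60, 10.39 and 10.36 in the wildtype pools. All Fgfrl1-/- pools were below all wildtype pools. The ratio of Col13a1 was -0.67, -1.04 and -1.10, a mean of -0.93 ± 0.23, so that it was 1.91-fold lower (adjusted p = 0.0175), from a probe at chr10:61233886-61233945 (mm8, minus strand). It passed under 12 of 16 alternatives, the most of the 9 called genes. The study listed Col13a1 among its lowered genes from the same arrays, so this is no independent evidence of its direction. Of the other transmembrane collagens, Col23a1 gave 0.60, 0.22 and 0.19 (adjusted p = 0.135), and Col17a1, a part of hemidesmosomes, and Col25a1 had means of 0.027 and 0.030. A further probe of Col23a1, nearly as bright and well above background in every channel, gave 0.0022 ± 0.14, so the value of this gene depends on the probe.

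**Figure D2:**
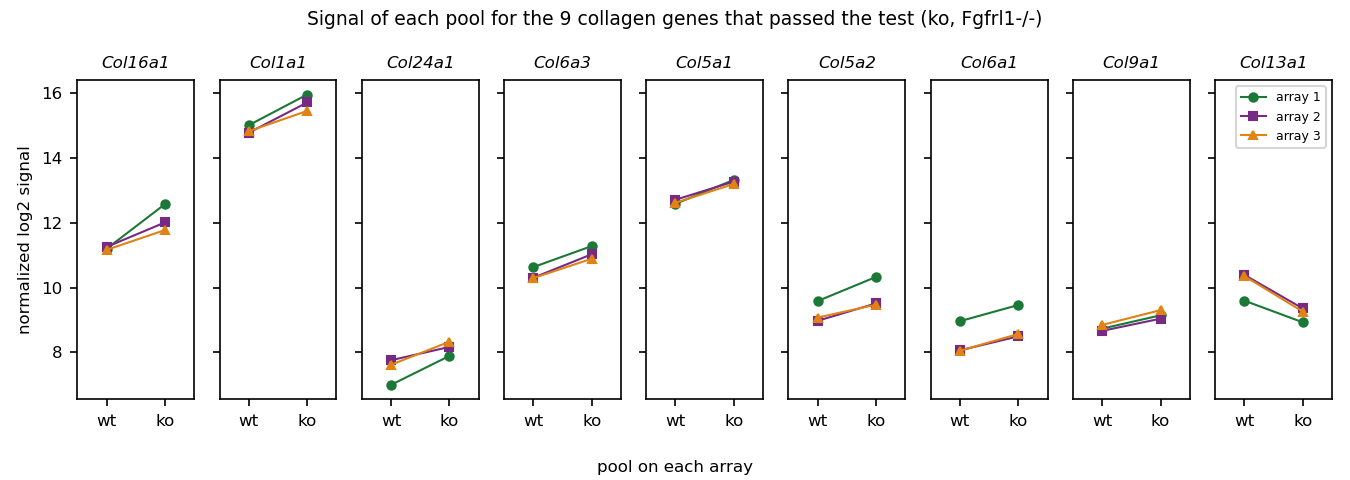
Normalized log2 signal (vertical axis) of the wildtype (wt) and the Fgfrl1-/- (ko) pool of each array (horizontal axis, lines join the pools of 1 array) for the 9 collagen genes that passed. All lines rise for 8 genes and fall for Col13a1, and the pools of the genotypes do not overlap in 7 of the 9, Col5a2 and Col6a1 being the exceptions. Over all genes, 8.66% had pools without overlap upward and 8.04% downward. The 9 genes were picked by the test on these same arrays, so the separation of their pools adds no support. Levels of different genes cannot be compared, since each probe has its own brightness.

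Types XXIV and XXVII resemble the fibrillar collagens in sequence but belong here to the other collagens. Col24a1 gave 0.89, 0.41 and 0.71, a mean of 0.67 ± 0.24 or 1.59-fold (adjusted p = 0.0382), from a probe at chr3:145488895-145488954 (mm8, plus strand). Col27a1 gave 0.63, 0.31 and 0.40, a mean of 0.45 ± 0.17 (adjusted p = 0.0564). Both were above 0 on all arrays. Type VIII collagen forms hexagonal networks near vessels, and its Col8a1 chain gave 0.55, 0.41 and 0.31, a mean of 0.42 ± 0.12 (adjusted p = 0.0506), while Col8a2 gave 0.60, 0.31 and 0.25, a mean of 0.39 ± 0.18 (adjusted p = 0.0804). Neither passed. Col7a1, the anchoring fibril chain, gave 0.72, -0.27 and -0.17, with array 1 opposite to the others. Over all collagen genes, the Fgfrl1-/- pools lay wholly above the wildtype pools for 11 and wholly below for 1, beside 8.66% and 8.04% of all genes.

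The other probes of a gene did not always repeat its ratio. Of the 40 genes, 29 had more than 1 probe. In the 6 of the 9 called genes that had several, the brightest probe was the one nearest the 3′ end of the gene in mm8, and the probe farthest upstream gave a smaller difference in each. For Col1a1 the probe 1023 bases upstream gave 0.95 ± 0.33, while the probe 13798 bases upstream gave 0.038 ± 0.23. The upstream probe of Col13a1, 28939 bases away, gave -0.31 ± 0.31, and the Col5a1 helix probe printed above, 48285 bases away, gave 0.37 ± 0.37.

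The other upstream probes were flagged well above background in only some channels or in none. That of Col16a1 gave -0.015 ± 0.17 and was well above background in 1 Fgfrl1-/- and 0 wildtype channels. Those of Col6a3 gave 0.076 ± 0.086 and 0.082 ± 0.087, and that of Col24a1 gave 0.059 ± 0.11. The offset of 50 added to both channels draws the ratio of a probe of low signal towards 0. The farthest upstream probes of all 6 genes had a mean log2 signal of only 6.01 (Col6a3) to 7.02 (Col5a1), those of Col1a1 (6.68) and Col13a1 (6.80) included, so that the upstream values of all 6 are uncertain. Averaging all probes of a gene left 5 collagen genes higher and 1 lower. Tested probe by probe, 3 of the 81 collagen probes were higher (0.289% of all 41174 probes) and 1 was lower (0.398%).

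**Figure D3:**
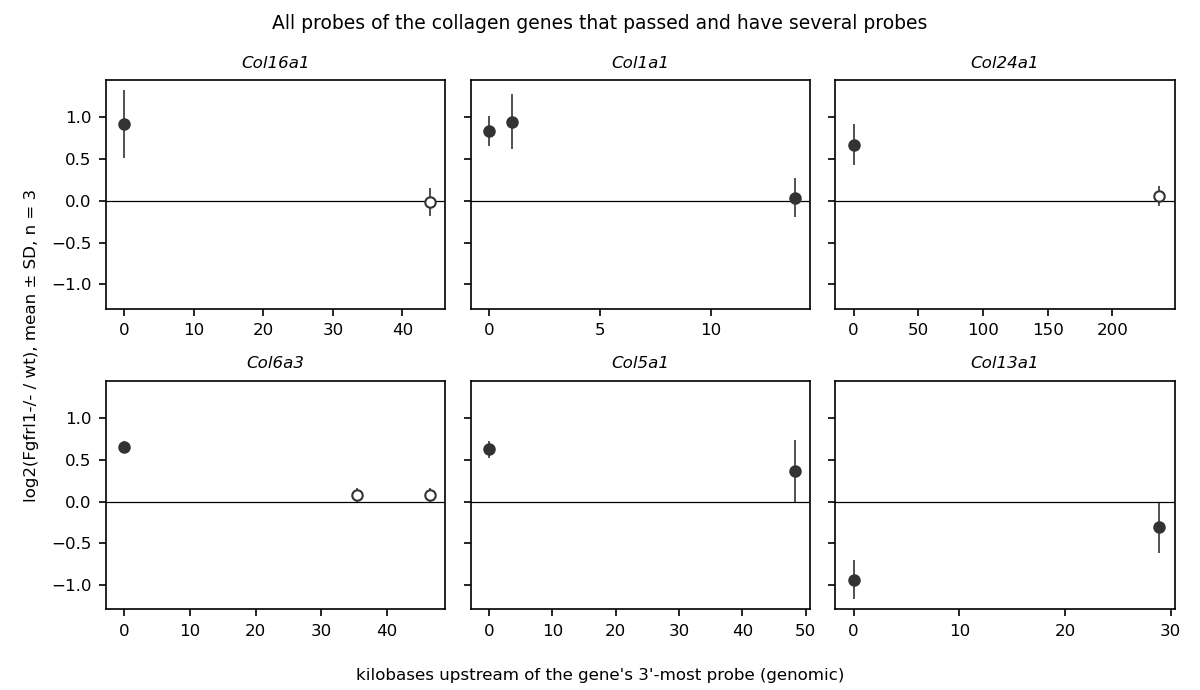
Mean log2 ratio ± SD over 3 arrays (vertical axis) of every probe of the 6 called collagen genes with several probes, against its genomic distance in kilobases upstream of the 3′-most probe of the gene (horizontal axis, scaled for each gene). Filled points were well above background in every channel. The farthest probe is nearer to 0 than the 3′-most probe in all 6 genes, and is filled for Col1a1, Col5a1 and Col13a1.

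Of the 40 genes, 32 had a promoter in the RefSeq table of GRCm38.p6. The CCAAT box (CCAAT, or ATTGG for the other strand) was found within 250 bases before the start in 12 of the 32, and in 37.5% of all 27025 genes of the table. It was present in 2 of the 7 called genes with a promoter, Col16a1 and Col9a1. The collagen genes thus held it about as often as other genes. Stretches from Col16a1, which had the highest mean ratio, and from Col1a2, the partner of Col1a1, are shown because the box stands at a like distance from the start, 113 and 109 bases before it. This distance is not particular to higher collagens. Col1a2 did not pass, nor did Col5a3 and Col4a1, which have the box 122 and 145 bases before the start. Capitals mark the box. They are chr4:130047687-130047771 and chr6:4505469-4505553, both on the plus strand of GRCm38.p6.
Col16a1: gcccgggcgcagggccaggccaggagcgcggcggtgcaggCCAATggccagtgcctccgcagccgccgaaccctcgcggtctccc
Col1a2: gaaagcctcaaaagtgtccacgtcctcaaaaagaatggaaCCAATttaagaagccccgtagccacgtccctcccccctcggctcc
No binding was measured here, and the match is a description of the letters.

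Genes that process collagen chains were examined in 4 lists, and 8 of their 57 members were higher and 0 lower in limma, beside 1.96% and 1.70% of all genes. An unadjusted p below 0.05 was reached by 19 upward and 2 downward, beside 11.3% and 9.75%. Of 17 genes for chain modification and folding, 3 were higher, with a median of 0.21. P3h3, a prolyl 3-hydroxylase, gave 0.82, 0.64 and 0.66, a mean of 0.71 ± 0.10 (adjusted p = 0.0172). P4ha1, a catalytic subunit of the prolyl 4-hydroxylase that stabilizes the helix, gave 0.73, 0.60 and 0.53, a mean of 0.62 ± 0.10 (adjusted p = 0.0205). Fkbp10, a prolyl isomerase that assists folding of type I collagen, gave 0.64, 0.44 and 0.59, a mean of 0.56 ± 0.10 (adjusted p = 0.0289). All 3 were higher on every array. Serpinh1, the collagen chaperone of the endoplasmic reticulum, gave a mean of 0.33 ± 0.25 (adjusted p = 0.158).

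Of 17 genes for export, trimming and cross-linking, 1 was higher, beside 1.96% of all genes, with a median of 0.073. Adamts2, the protease that removes the amino propeptide of fibrillar procollagens, gave 0.62, 1.02 and 0.80, a mean of 0.81 ± 0.20 (adjusted p = 0.0198). Lox, the lysyl oxidase that starts cross-linking, gave -0.29, -0.29 and -0.35, a mean of -0.31 ± 0.034 (adjusted p = 0.0724). Pcolce2, an enhancer of carboxy propeptide removal, gave -0.79, -0.60 and -0.28, a mean of -0.56 ± 0.26 (adjusted p = 0.0558). The last 2 were below 0 on all arrays without passing.

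Of 10 collagen receptor genes, 2 were higher, beside 1.96% of all genes, with a median of 0.083. Ddr2, a receptor tyrosine kinase for fibrillar collagen, gave 0.66, 0.52 and 0.36, a mean of 0.52 ± 0.15 (adjusted p = 0.0408). Itgb1, the beta chain of the collagen-binding integrins, gave 0.41, 0.43 and 0.33, a mean of 0.39 ± 0.053 (adjusted p = 0.0488). Ddr1, the paralog known from epithelia, gave a mean of -0.023 ± 0.14. Of 13 genes for breakdown, 2 were higher, beside the same 1.96%, with a median of 0.095. Mmp2, a gelatinase, gave 0.51, 0.87 and 0.63, a mean of 0.67 ± 0.18 (adjusted p = 0.0284), and Timp2, which both inhibits metalloproteinases and assists activation of Mmp2, gave 0.56, 0.51 and 0.44, a mean of 0.50 ± 0.060 (adjusted p = 0.0309). Without array 1 the 4 lists held 15 genes higher and 3 lower, beside 12.3% and 11.4% of all genes, and with median centring 0 were higher (1 at an unadjusted p below 0.05).

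**Figure D4:**
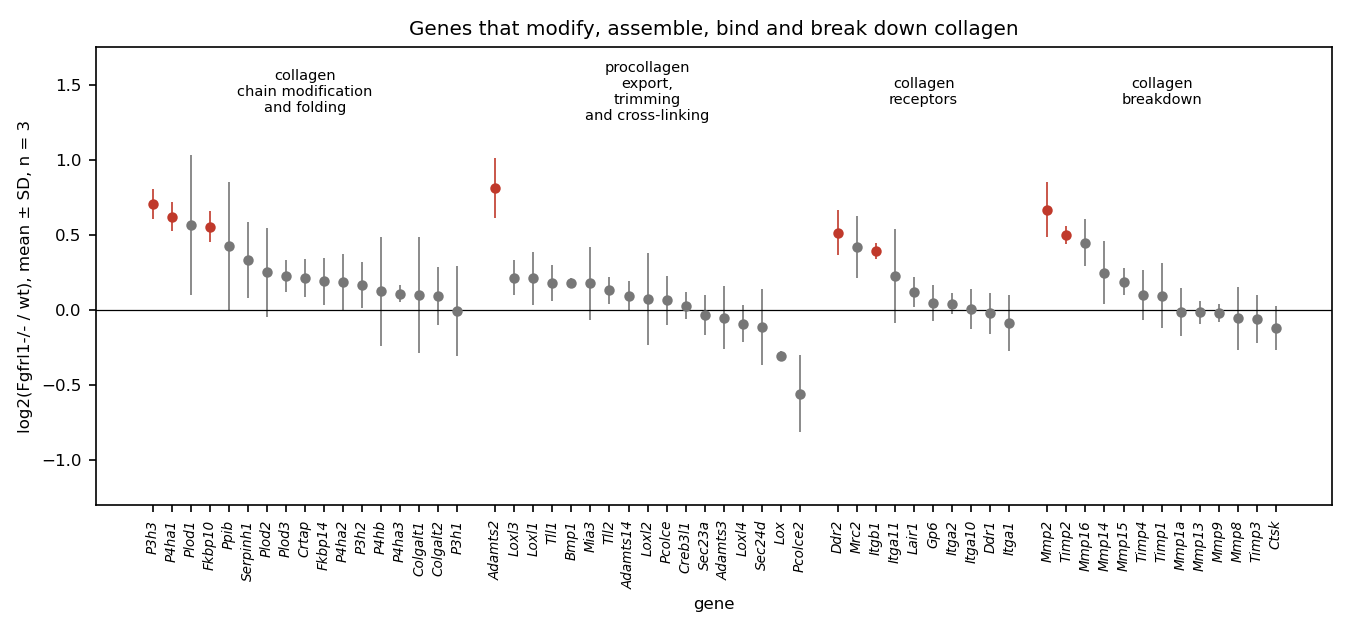
Mean log2 ratio of Fgfrl1-/- over wildtype ± SD over 3 arrays (vertical axis) for 57 genes that modify, export, cross-link, bind or break down collagen (horizontal axis, sorted within each list). Red points are the 8 genes with an adjusted p below 0.05, all above 0, and gray points did not pass. With median centring none of the 57 genes was called higher.

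Some markers of stromal cells and macrophages were also higher. Over all genes, 1.96% were called higher and 1.70% lower. Of 11 stroma markers, all well above background, 4 were higher, namely Pdgfra (1.02 ± 0.093), Foxd1 (0.90 ± 0.29), Dcn (0.89 ± 0.27) and Ntn1 (0.72 ± 0.31), none was lower, and Tcf21 (-0.48 ± 0.26), Pdgfrb (-0.25 ± 0.23) and Tbx18 (-0.15 ± 0.31) lay below 0. The summed signal of the list was 77922 to 84077 in the Fgfrl1-/- pools and 55606 to 60127 in the wildtype pools, without overlap. Such a sum is weighted towards the brightest probes, here Foxd1 and Meis2. The log2 signal of Foxd1 was 14.46 to 15.03 in the Fgfrl1-/- and 13.23 to 14.27 in the wildtype pools. That of Meis2 was 14.81 to 14.83 and 14.50 to 14.57. The sum therefore says little of the dimmer members, and the sums of the other lists share this limit. Of 5 macrophage markers, 2 were higher, Csf1r (0.53 ± 0.18) and Cd68 (0.44 ± 0.12), with a sum of 1797 to 2656 against 1463 to 1661. Of 7 renal vesicle markers, 6 were lower, with a median of -1.28 and a sum of 1890 to 2768 against 6127 to 6622. The part of these shifts in the collagen ratios was not tested. In pooled tissue, more cells of a type and more RNA per cell cannot be told apart.

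For the lists that follow, the shares over all genes were 1.96% called higher, 1.70% called lower and 21.1% with an unadjusted p below 0.05 in limma. Of 10 cartilage precursor markers, 0 passed in limma, and 4 had an unadjusted p below 0.05 (Sox9 upward, Sox6, Cnmd and Hapln1 downward). Sox5, Sox6, Sox9 and Hapln1 were well above background in every channel, Matn1 and Cnmd in none, and the sum was 3002 to 3976 in the Fgfrl1-/- and 3026 to 3206 in the wildtype pools. Sox9, with a log2 signal of 10.90 to 11.56 over all pools, was far brighter than the other members and dominates this sum. Of 6 bone precursor markers 1 was lower (Alpl, -0.49 ± 0.13), and of 7 skeletal muscle markers 1 was higher (Tnnt1, 0.54 ± 0.21). Of 6 markers of glia and neural crest 1 was lower (Fabp7, -0.79 ± 0.19). Single calls in lists this small give no result about a cell type. Of 8 endothelial, 6 erythroid and 5 steroidogenic markers none passed in limma, with 1, 2 and 0 at an unadjusted p below 0.05. Of 9 markers of the ureteric epithelium 1 was higher (Wnt9b, 0.73 ± 0.25) and 1 lower (Wnt11, -0.76 ± 0.13). An unadjusted p below 0.05 in limma was reached by 6, upward by Wnt9b, Krt8, Gata3, Calb1 and Cdh1 and downward by Wnt11. The median of this list was 0.34, and the sum was 24432 to 31709 in the Fgfrl1-/- and 21524 to 22958 in the wildtype pools. Of 8 markers of the metanephric mesenchyme 1 was lower, the median was -0.093, and the sum was 15068 to 16003 against 18528 to 19819. The sums of both lists did not overlap between the genotypes, and their part in the collagen ratios was not tested either.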

How the data were processed

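Both channels of 3 two-colour Agilent arrays were used. The files that the authors deposited come from the Feature Extraction scanner software of Agilent (9.5.3.1 on array 1, otherwise 10.5.1.1) and hold raw spot intensities and log10 ratios, and the authors added a table of log2 ratios per probe. Median intensities were corrected with normexp (offset 50) and normalized by loess in limma 3.58.1 (R 4.3.3), control spots having weight 0. The sign was turned to give Fgfrl1-/- over wildtype, which are the pools the labels assign to Cy3 and Cy5. Spots flagged as outliers (107 to 138 per array) were dropped, and spots of a probe were averaged. Gene names came from the files and RefSeq, and each gene was represented by its brightest probe. An intercept-only fit with eBayes, 2-sided, kept the pools of an array paired, and p-values were adjusted over 19753 genes. The fit was tested on simulated data. The pools of 1 genotype are separate RNA preparations, and their number, 3, limits the precision of every value. A probe counted as well above background by the software's own flag. 1639 control spots were left out.

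The collagen genes and the lists were chosen with earlier results of these data known. Per-array values were given for collagens with an adjusted p below 0.05 or a mean of at least 0.5 in size, and for partner chains. Outside this rule, Col3a1, Col7a1, Col8a1, Col8a2, Col14a1, Col23a1, Col27a1, Serpinh1, Lox, Pcolce2 and Ddr1 were chosen after their values were seen. The study's own statistics were not used.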

Additional observations from a re-analysis of the deposited data

How the results depend on the processing

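With the main settings 8 collagen genes were higher and 1 was lower. Other settings gave 0 higher and 0 lower with a normexp offset of 0 (15 and 1 at an unadjusted p below 0.05 in limma), 0 and 0 by the scanner's own ratios (15 and 1), 0 and 1 with median centring, 5 and 1 with probes averaged per gene, 3 and 1 with the scanner files' gene names, 3 and 1 with the authors' log2 table, and 17 and 2 with the slide as a block. Leaving out 1 array gave 0 to 13 higher and 0 to 3 lower, the highest counts without array 1. The fit without array 1 and the one with the slide as a block do not measure the spread between slides. The calls over all genes moved likewise, from 1.96% higher and 1.70% lower to 0% and 0% with the offset of 0 and by the scanner's own ratios, 0.0861% and 1.54% with median centring, 16.3% and 13.7% with the slide as a block, and 0% to 12.3% higher and 0.0405% to 11.4% lower when 1 array was left out. Of the genes that process collagen, 8 were higher and 0 lower, against 0 higher under median centring, the offset of 0 and the scanner's own ratios (1, 14 and 15 at an unadjusted p below 0.05), and 0 to 15 higher and 0 to 3 lower when 1 array was left out. Each array pairs 1 Fgfrl1-/- with 1 wildtype pool. A limma fit of the separate channels, without a replicate block, called 6 collagen genes higher and 1 lower. Of these, 5 and 1 were the same genes, while Col27a1 newly passed at 0.45. This fit kept a correlation of 0.52 between the channels of a spot, so it does not show the effect of dropping the pairing. No other paired analysis was possible because the labels give a single group of arrays.

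The fibrillar median of 0.41 moved to 0.10 with median centring, to 0.74 on array 1 alone and to 0.14 to 0.61 when 1 array was left out. The basement membrane median of 0.034 was -0.14 with median centring and -0.0041 to 0.059 when 1 array was left out. That of the other collagens, 0.10, was 0.40 by the scanner's own ratios, 0.22 without dim probes, 0.33 on array 1 alone and 0.15 to 0.22 when 1 array was left out. The cause of these shifts was not tested.

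The genes that changed sign were all ones that had not passed. With median centring these were Col10a1 (0.079), Col11a1 (-0.19), Col15a1 (-0.063), Col18a1 (-0.40), Col19a1 (0.093), Col3a1 (-0.067), Col4a5 (-0.0094) and Col7a1 (-0.089). With the mean of probes they were Col12a1 (0.012), Col15a1 (-0.026), Col17a1 (-0.0087), Col19a1 (0.0024), Col22a1 (0.11), Col4a1 (0.0017) and Col5a3 (-0.0037). Col10a1 was at 0.19 in the authors' table, 0.16 without background subtraction and 0.40 by the scanner's own ratios, which put Col22a1 at 0.0013. Col18a1 was at -0.012 after quantile scaling. With the slide as a block Col12a1 was at 0.051, Col17a1 at -0.0081, Col4a1 at 0.016 and Col4a6 at 0.012. Leaving out 1 array put Col20a1 between -0.036 and 0.077, Col25a1 between -0.12 and 0.14, Col4a5 between -0.061 and 0.15, Col7a1 between -0.22 and 0.27, Col10a1 between -0.049 and 0.034, Col18a1 between -0.034 and 0.10, Col19a1 between -0.14 and 0.034, Col4a1 between -0.13 and 0.023, Col12a1 between -0.22 and 0.11, Col15a1 between -0.045 and 0.077, Col17a1 between -0.023 and 0.097, Col2a1 between -0.091 and 0.021 and Col4a6 between -0.19 and 0.066. The 9 called genes kept their direction under the 16 alternatives with a test. For the fits without 1 array and with the slide as a block this was fixed beforehand, since each had the same sign on every array. Trend and robust variances and separate channels leave a log2 ratio as it is. The settings without dim probes, with outlier spots kept and with the scanner files' gene names did not change the ratios of these 9 genes. The direction could not turn under those settings either. Dim probes limit Col4a3, Col10a1, Col19a1 and Col28a1, and a dye effect could not be removed with 0 swapped arrays.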
